A study of Rattus norvegicus with 6 samples.

Results

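The rows of miR-219 and miR-338, microRNAs (miRNAs) known for their part in oligodendrocyte differentiation and myelination, were examined in small RNA libraries from the medial prefrontal cortex of 6 rats. They were chosen by name, as every annotated row of the expression table called miR-219a (with its gene-specific forms miR-219a-1 and miR-219a-2), miR-219b or miR-338, with any arm. This gave 6 of 694 annotated rows and of 1465 rows in all, the rest being predicted by the authors. They are rno-miR-219a-2-3p, rno-miR-219a-5p, rno-miR-219a-1-3p, rno-miR-219b, rno-miR-338-5p and rno-miR-338-3p, where rno stands for the rat and is left out below. One group of 3 rats had gone through chronic mild stress (CMS), in which 8 stressors were applied in random order for 4 weeks. The stressors were foot shock, loss of water or of food, swimming in cold water, restraint, a clip on the tail, a reversed light cycle and a tilted cage. The other 3 rats, the Control group, were kept for the same 4 weeks with only handling and cage cleaning. The labels give no strain, sex or age. Tissue of 3 rats gave the 3 libraries of each group. In the labels 1 Control library (Control 3) carries the label polyA RNA where the other 5 libraries carry total RNA, although the protocol names total RNA for all. It was kept as a Control library, and the calls on named rows that need it, with the counts of calls without it, are given below.

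A miRNA gene is transcribed as a hairpin whose stem is cut into a 5p and a 3p strand, the arms. One arm is usually loaded into an Argonaute protein and kept, and it recognises messenger RNAs mainly through its seed, bases 2 to 8. Oligodendrocytes, the myelin-forming glia of the brain, switch on miR-219 and miR-338 as they leave the precursor state. In mice, loss of these miRNAs impairs oligodendrocyte maturation, and miR-219 represses transcripts that keep precursors dividing, such as those of Pdgfra, Sox6 and Hes5. The arms most often studied in this setting are miR-219a-5p and miR-338-3p.

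All 6 rows matched a mature miRNA in RefSeq (build GRCr8), and the sequences are shown because the comparisons below are between arms and between gene copies. The seed is in capitals, and each is written 5′ to 3′.
miR-219a-5p: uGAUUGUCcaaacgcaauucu
miR-219a-2-3p: aGAAUUGUggcuggacaucugu
miR-219a-1-3p: aGAGUUGCgucuggacgucccg
miR-219b: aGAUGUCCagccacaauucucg
miR-338-3p: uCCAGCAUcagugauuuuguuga
miR-338-5p: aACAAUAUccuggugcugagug
No 2 of them share a seed, and none of the other mature miRNA names among the 693 in the RefSeq table carries one of these seeds. Each of the 6 therefore stands alone as a seed family in that table.

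The hairpins show which arms belong together. Mature arms are in capitals, the first in each hairpin being the 5p arm.
Mir219-2: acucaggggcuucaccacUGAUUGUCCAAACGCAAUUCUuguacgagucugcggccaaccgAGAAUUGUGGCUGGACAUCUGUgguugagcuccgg
Mir219a1: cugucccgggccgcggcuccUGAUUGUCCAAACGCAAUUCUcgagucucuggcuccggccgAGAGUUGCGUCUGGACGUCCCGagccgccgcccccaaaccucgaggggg
Mir338: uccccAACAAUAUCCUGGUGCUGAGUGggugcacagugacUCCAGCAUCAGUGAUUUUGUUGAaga
In GRCr8, Mir219-2 lies on the minus strand at chr3:33516504-33516599, Mir219a1 on the plus strand at chr20:4831580-4831689 and Mir338 on the minus strand at chr10:105796342-105796407. Mir219-2 lies within the bounds of the long non-coding RNA gene LOC120101515 on the same strand and of Cercam on the opposite strand. Mir338 lies within Aatk, a kinase gene on the same strand, and Mir219a1 lies between Hsd17b8 and Ring1. Whether these positions are exonic or intronic was not looked up here.

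The sequence of miR-219a-5p is the same in the Mir219-2 and Mir219a1 hairpins, so its row cannot be assigned to either gene. The 3p arms do tell the genes apart. Counted from the 5′ end of miR-219a-2-3p, miR-219a-1-3p differs from it at 7 of 22 positions (A4G, U8C, G10U, A17G, U20C, G21C and U22G), of which A4G and U8C lie in the seed. The gene of miR-219b, named Mir2964 in RefSeq, lies on the strand opposite Mir219-2, and its mature sequence overlaps miR-219a-2-3p over 20 bases, all 20 of them complementary.

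The deposited values are normalized and rounded to whole numbers, on a scale that is not stated, and they summed to between 709674 and 736020 in the CMS libraries and to between 718554 and 736078 in the Control libraries. The sequencing depth is unknown, and no interval for counting error is given. Blank cells were taken as 0. A value of 1 is the smallest the table holds, so the rows near it are known only coarsely. The mature forms are 21 to 23 bases long, so levels of different rows are compared without a correction for length. Whether different sequences were captured equally well was not tested, so comparisons between rows or arms are of deposited values only.

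Of the 3p arms of miR-219a, that of Mir219-2 made up nearly the whole signal. The level of miR-219a-2-3p was 2390, 1449 and 1613 in CMS 1, 2 and 3, against 1567, 1347 and 1310 in Control 1, 2 and 3. CMS 1 was the highest library and Control 3 the lowest, and the groups overlapped because CMS 2 lay below Control 1. Its mean over the 6 libraries was 1612.7, rank 63 among the 694 annotated rows. The 3p arm of the other gene, miR-219a-1-3p, was listed at 1 in each CMS library and in Control 1, and was blank in Control 2 and Control 3.

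The 5p arm that both miR-219a genes share was low. The level of miR-219a-5p was 4, 1 and 2 in CMS 1, 2 and 3, against 4, 8 and 7 in Control 1, 2 and 3. The highest CMS library thus equalled the lowest Control library, and the other libraries did not overlap. Its rank among annotated rows was 384. The antisense row miR-219b had exactly the values of miR-219a-1-3p, a 1 in each CMS library and in Control 1 and a blank in the other Controls. The sources used here do not say whether reads were assigned by strand.

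The arms of miR-338 were closer to each other. The level of miR-338-5p was 560, 322 and 400 in CMS 1, 2 and 3, against 425, 449 and 437 in Control 1, 2 and 3. The level of miR-338-3p was 205, 115 and 197 in the CMS libraries and 180, 181 and 178 in the Control libraries. For both arms the Controls lay within a narrow range that the CMS libraries straddled, with CMS 1 above it and CMS 2 below it. The 5p arm ranked 131 and the 3p arm 177 among annotated rows. The 5p arm exceeded the 3p arm 2.48-fold in CMS and 2.43-fold in Control by group means. On the strand opposite Mir338, miR-3065-5p, named here after its values were seen, was listed at 0, 1 and 2 in the CMS libraries and at 2, 1 and 1 in the Control libraries.

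**Figure D1:**
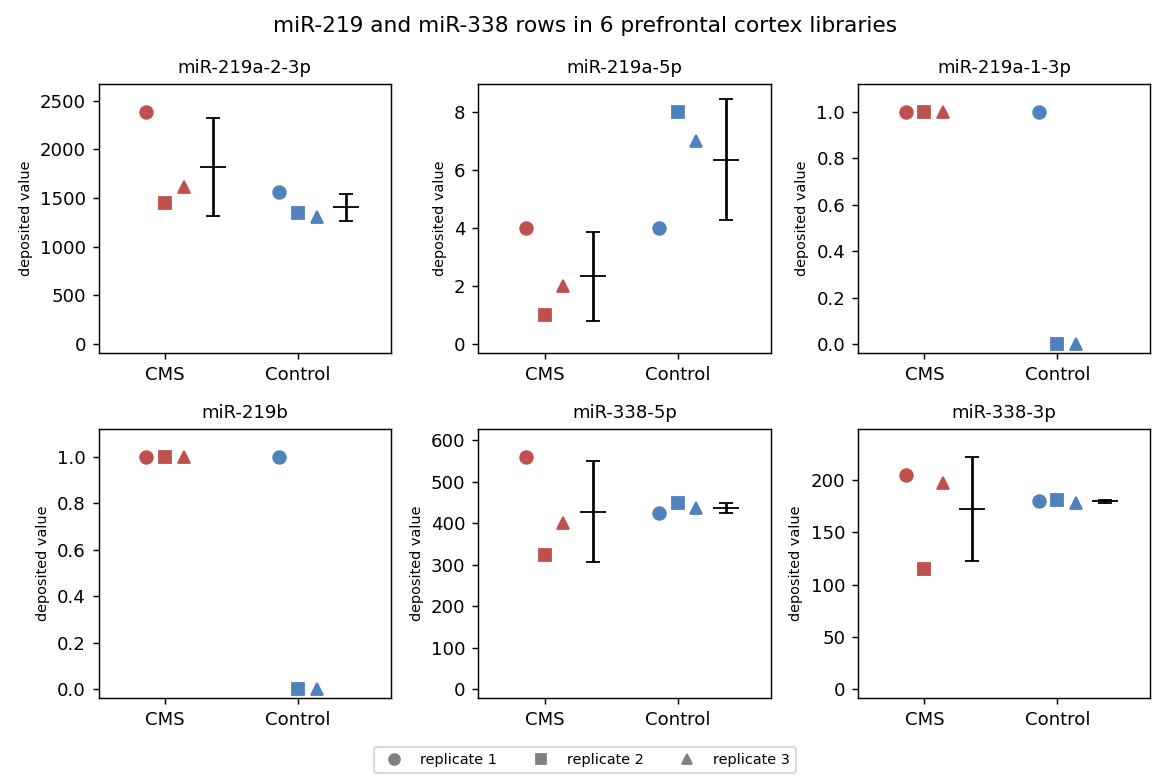
Deposited values (vertical axis, normalized and rounded, 0 at the base) of the 6 miR-219 and miR-338 rows in CMS (red) and Control (blue) libraries, with marker shapes for replicate numbers and, for the 4 rows listed in every library, the mean with its SD (n = 3). For miR-338-3p the CMS values lie between 115 and 205 while the Control values lie between 178 and 181, and for miR-219a-5p the CMS values of 1 to 4 lie at or below the Control values of 4 to 8.

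In total the 6 rows held 0.429%, 0.266% and 0.312% of the library sum in CMS 1, 2 and 3, against 0.296%, 0.276% and 0.267% in Control 1, 2 and 3. CMS 1 stood above the other 5 libraries, and CMS 2 was the lowest. Of the summed signal, miR-219a-2-3p made up between 72.9% and 76.7% in CMS libraries and between 67.8% and 71.9% in Control libraries. In whole tissue, the number of oligodendrocytes and the level of these miRNAs in each cell cannot be told apart.

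The design asks whether stress changes the level of these miRNAs. None of the 6 rows passed the test over all 657 rows with enough values (limma-trend, Benjamini-Hochberg adjusted p under 0.05). Over all 657 rows, 27 passed, or 4.11%, of which 22 (3.35%) were higher in CMS and 5 (0.761%) lower. All 6 rows passed the filter on low values (at least 1 in at least 3 libraries), miR-219a-1-3p and miR-219b through the CMS libraries. With these included, the median log2 difference, CMS minus Control, was 0.13 over the 6 rows, and it was 0.08 over all rows tested. At an unadjusted p under 0.05 there was 1 of the 6 rows, miR-219a-5p, against 23.3% of all rows.

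The level of miR-219a-2-3p averaged 1817.3 ± 502.7 in CMS and 1408 ± 138.9 in Control (SD, n = 3 each). The log2 difference was 0.34 ± 0.21 (SE), with a 95% interval from -0.18 to 0.85, and its limma adjusted p of 0.344 did not pass. The interval holds both a small fall and a rise of the size seen in CMS 1. Without CMS 1 the log2 difference was 0.12.

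The level of miR-219a-5p averaged 2.33 ± 1.53 in CMS and 6.33 ± 2.08 in Control (SD, n = 3 each). The log2 difference was -1.19 ± 0.40 (SE), with a 95% interval from -2.19 to -0.20, and did not pass after adjustment over all rows (limma adjusted p = 0.152). It was negative in each of the 14 alternative settings in which it could be computed, in none of which it passed (limma adjusted p from 0.0703 to 0.385). On the scale of log2(value + 1) used here, the change of so low a row is understated.

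Neither arm of miR-338 passed. The level of miR-338-5p averaged 427.3 ± 121.3 in CMS and 437 ± 12 in Control (SD, n = 3 each), a log2 difference of -0.07 with a 95% interval from -0.59 to 0.45 (limma adjusted p = 0.885). The level of miR-338-3p averaged 172.3 ± 49.8 in CMS and 179.7 ± 1.53 in Control (SD, n = 3 each), a log2 difference of -0.11 with a 95% interval from -0.70 to 0.48 (limma adjusted p = 0.836). Without CMS 2 both differences were positive, at 0.12 for miR-338-5p and 0.16 for miR-338-3p, so their sign rested on that library.

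The rows at the limit of the table, miR-219a-1-3p and miR-219b, each had a log2 difference of 0.67 that did not pass (limma adjusted p = 0.238). Listed in 1 Control library only, both rows met the filter on low values through the CMS libraries, so nothing is read from this test. Without Control 1, the 1 Control library in which they were listed, each row holds a 1 in every CMS library and a blank in both Controls that are left. It then meets the filter on low values through CMS alone, with no spread within a group, so its test there says nothing of the rats, and no fold is given.

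Arms of a hairpin come from the same precursor. A single scaling factor for a library leaves their ratio within it unchanged, apart from the pseudocount. The normalization used is not given, and arm ratios were not run under other scalings. The log2 ratio of the 3p arm to the 5p arm was therefore tested over all 172 pairs of arms that passed the filter, with the shared miR-219a-5p paired with each gene-specific 3p arm. The ratio of miR-219a-2-3p to miR-219a-5p was higher in CMS and passed. As plain ratios it was 597.5, 1449 and 806.5 in CMS 1, 2 and 3, against 391.8, 168.4 and 187.1 in Control 1, 2 and 3. Every CMS library lay above every Control library.

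On the log2 scale the ratio averaged 9.16 ± 0.31 in CMS and 7.63 ± 0.58 in Control (SD, n = 3 each). The difference was 1.53 ± 0.32 (SE), with a 95% interval from 0.82 to 2.25 (limma adjusted p = 0.0196). Arm ratios passed for 15 of the 172 pairs, or 8.72%, of which 6 (3.49%) shifted toward the 3p arm in CMS and 9 (5.23%) toward the 5p arm. Groups did not overlap for 36% of all pairs, and 33.7% were at an unadjusted p under 0.05, so the separation alone was common. By p the miR-219a-2 pair ranked 7 of 172, and by size of the difference 5.

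The call rests on values of 1 to 8 in the 5p arm and on 4 of the 6 libraries. It passed without Control 1, with a difference of 1.87, or without Control 2, with 1.33 (limma adjusted p = 0.00179 and 0.0454). It was lost without Control 3, CMS 1, CMS 2 or CMS 3 (limma adjusted p = 0.103, 0.0689, 0.0913 and 0.0647), with the difference between 1.36 and 1.66. When the 5p values were moved by 0.5, the most that rounding allows, against the difference in every library, it was 1.20 and passed (limma adjusted p = 0.0485).

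The other pairs of arms did not pass. For miR-219a-1-3p over miR-219a-5p the log2 difference was 1.86 ± 0.60 (SE, limma adjusted p = 0.0727). With a 3p arm listed at 0 or 1 throughout, its size follows the pseudocount, at 0.50 with a pseudocount of 10 and 3.85 with 0.1. Without Control 1 it was 2.45 and passed (limma adjusted p = 0.0146). There the 3p arm holds a 1 in every CMS library and a blank in both Controls that are left. It meets the filter on low values through CMS alone, so that pass says nothing of the rats. This pair shares the miR-219a-5p values with the first pair, so the pairs are not separate evidence. For miR-338 the 3p arm stood at 0.366, 0.357 and 0.492 of the 5p arm in CMS 1, 2 and 3, and at 0.424, 0.403 and 0.407 in Control 1, 2 and 3. The CMS libraries lay on either side of the Controls. The log2 difference was -0.04, with a 95% interval from -0.47 to 0.39 (limma adjusted p = 0.894), and it turned positive without CMS 1 or without CMS 2 (0.030 and 0.046).

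**Figure D2:**
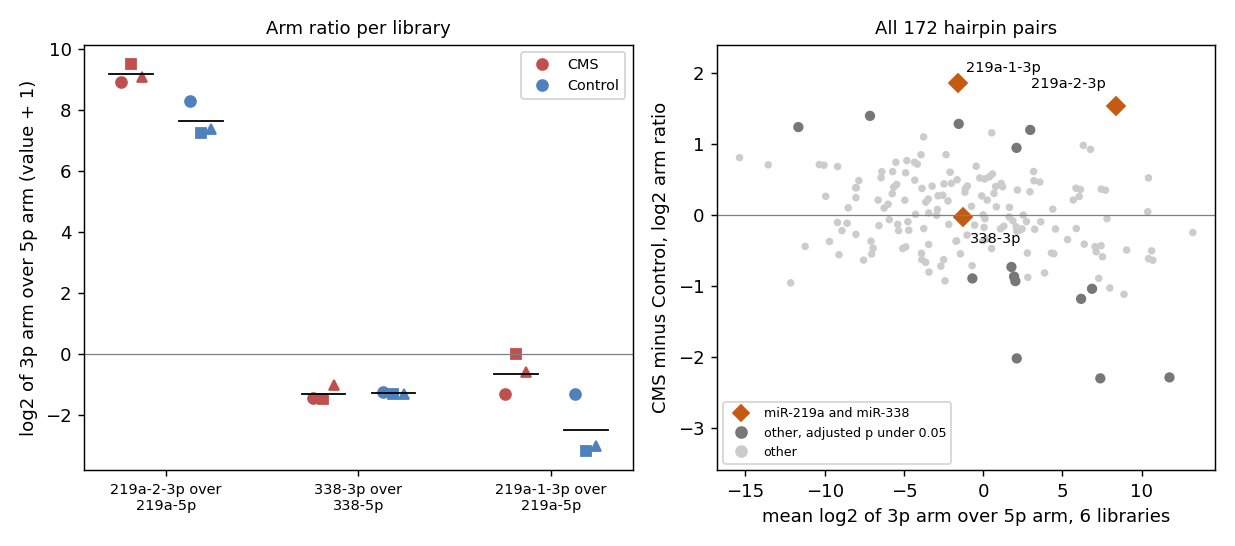
Left, log2 of the 3p arm over the 5p arm (value + 1) in each library, with CMS in red, Control in blue, replicate numbers as marker shapes and lines at the group means. Right, the difference of that log2 ratio, CMS minus Control, against its mean over the 6 libraries for all 172 pairs, where miR-219a-2-3p over miR-219a-5p lies at 1.53 and miR-338-3p over miR-338-5p at -0.04.

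By the deposited values, the arms of the miR-219a-2 hairpin were also far apart in level. Its 3p arm exceeded the 5p arm by 8.39 on the log2 scale over the 6 libraries, rank 10 of 172 pairs toward the 3p arm. In the sequences above, the less abundant arm of Mir219-2 and of Mir338 begins with U and the more abundant arm with A. Mir219a1 goes the other way, its arm beginning with U averaging 4.33 and its arm beginning with A 0.67. The arm beginning with U is the same shared row, miR-219a-5p, in Mir219-2 and Mir219a1. Sequences of both arms were at hand for 154 pairs, and in 82 of these exactly 1 arm begins with U. The arm beginning with U was the lower in 16 of the 82, or 19.5%, and Mir219-2 and Mir338 are among these 16. This is a description over hairpins, some of which share an arm.

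The abundant arms were compared for how they varied from rat to rat. For miR-338-3p the coefficient of variation (SD over mean) was 28.9% in CMS and 0.85% in Control. For miR-338-5p it was 28.4% in CMS and 2.75% in Control. For miR-219a-2-3p it was 27.7% in CMS and 9.87% in Control. The medians over the 207 annotated rows with a mean of at least 100 were 13.1% in CMS and 13.8% in Control. Among these rows, in CMS and counted from the highest, miR-338-3p had rank 23, miR-338-5p rank 26 and miR-219a-2-3p rank 30. In Control, counted from the lowest, miR-338-3p had rank 2, miR-338-5p rank 7 and miR-219a-2-3p rank 74. The log2 SD was larger in CMS than in Control in 47.8% of the 207 rows. With 3 rats a group, no test of this spread was made.

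**Figure D3:**
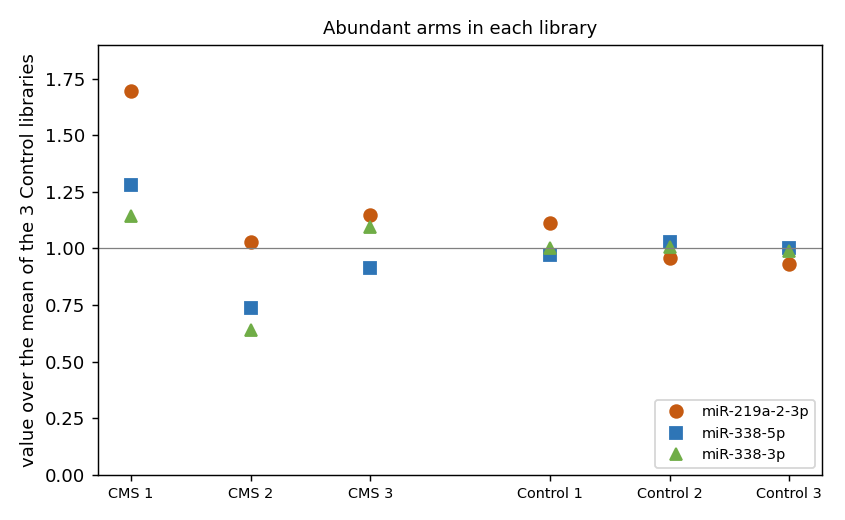
Level of the 3 abundant arms in each library, as a multiple of their mean over the 3 Control libraries (vertical axis, linear, from 0; grey line at 1). CMS 1 lies above 1 for all 3 arms, CMS 2 is lowest for both miR-338 arms (0.737 and 0.640) and the Control libraries stay between 0.930 and 1.11.

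The ratio of miR-219a-2-3p to the arms of miR-338 was also compared. With 3 rats against 3 the test used cannot give a p under 0.05, so neither ratio could pass. The level of miR-219a-2-3p was 11.7, 12.6 and 8.19 times the level of miR-338-3p in CMS 1, 2 and 3, against 8.71, 7.44 and 7.36 times in Control 1, 2 and 3. The lowest CMS library lay below the highest Control library, and the log2 difference of 0.44 had p = 0.2 (exact permutation test over libraries, two-sided, smallest possible p 0.1). Against miR-338-5p, a pair added after the data were seen, it was 4.27, 4.5 and 4.03 times in the CMS libraries and 3.69, 3.00 and 3.00 times in the Control libraries. Here every CMS library lay above every Control library, with a log2 difference of 0.41 and p = 0.1, the smallest this exact permutation test can give with 3 rats against 3. Such separation was common, at 25.9% of all 657 rows and 36% of the 172 arm ratios.

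Over the 6 libraries, log2 levels of miR-219a-2-3p and miR-338-3p had a Pearson r of 0.42 (exact permutation p = 0.296) and a Spearman rho of 0.71 (exact permutation p = 0.136). Without Control 3 and CMS 1, the libraries farthest from the median of miR-219a-2-3p, r was 0.32. It was 0.26 with trimmed-mean rescaling and 0.16 with quantile normalization. The arms of miR-338 had a Pearson r of 0.83 (exact permutation p = 0.0681) and a Spearman rho of 0.60 (exact permutation p = 0.242). Without CMS 1 and CMS 2 that r was -0.86, so the relation rested on these 2 libraries. Of the 15 pairs of rows none passed after Benjamini-Hochberg adjustment (smallest adjusted exact permutation p = 0.384 for r and 0.292 for rho).

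Among 344 other annotated rows with a mean of at least 10, those most like miR-219a-2-3p over the 6 libraries were miR-92a-3p (r = 0.98), miR-455-3p (r = 0.97) and miR-541-5p (r = 0.95), all highest in CMS 1. Most like miR-338-3p were miR-146a-5p (r = 0.96), miR-212-5p (r = 0.94) and miR-142-5p (r = 0.91), all lowest in CMS 2. These are descriptions of 6 libraries that share their scaling.

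Marker lists of other cell types were summed in each library to show what else moved with CMS 1 and CMS 2. The 5 endothelial and mural cell miRNAs summed to 30421 in CMS 1, 19125 in CMS 2 and 23003 in CMS 3, and to between 18055 and 22446 in Control. Of these, 4 members were higher and 1 lower in CMS. The 6 microglial and immune miRNAs summed to between 926 and 1309 in CMS and between 870 and 904 in Control, with 3 members higher and 3 lower in CMS. Without miR-150-5p, a lymphocyte miRNA singled out after its values were seen, the sums of the other 5 overlapped, reaching at most 503 in CMS and 477 in Control. Within that list miR-223-3p, a myeloid marker, stayed between 1 and 3 in CMS and between 0 and 2 in Control. The 4 red blood cell miRNAs summed to between 260 and 443 in CMS and between 177 and 351 in Control. Of these only miR-451-5p had a higher mean in CMS, and the other 3 summed to between 106 and 140 in CMS and between 126 and 165 in Control. The 6 choroid plexus and ependymal miRNAs summed to between 1057 and 1963 in CMS and between 1167 and 2088 in Control, with CMS 1 lowest. Of these, 3 members were higher and 3 lower in CMS. The 6 neuronal miRNAs summed to between 99964 and 110037 in CMS and between 94076 and 129169 in Control. Members of this list moved in both directions, with 4 higher and 2 lower in CMS, which the sum does not show. No member of these lists passed over all rows, and their part in the values of miR-219 and miR-338 was not tested.

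Another 19 miRNAs described in oligodendrocyte precursors, their differentiation or myelin were set beside the miR-219 and miR-338 rows. The list is not separate from the marker lists of other cell types above. It shares miR-145-5p, miR-9a-5p, miR-155-5p, miR-138-5p, miR-124-3p, miR-146a-5p and miR-204-5p with them. All 19 were measured, 1 rose and none fell (limma adjusted p under 0.05 over all 657 rows, against 4.11% of all rows). In the same fit, 6 of the 19 (31.6%) were at an unadjusted p under 0.05, against 23.3% of all rows. Their median log2 difference was 0.20, against 0.08 over all rows, and 15 (78.9%) were positive, against 56.5% of all rows. Nothing particular to the list is read from these shares. The 1 that rose was miR-23a-3p, which in mice represses lamin B1, a nuclear envelope protein whose excess disturbs myelin. It was at 1205, 1057 and 1230 in CMS 1, 2 and 3, against 645, 535 and 594 in Control 1, 2 and 3, so that every CMS library lay above every Control library. Its log2 difference was 0.98 ± 0.12 (SE, limma adjusted p = 0.0157), but this call needed Control 3, CMS 1 and CMS 3, without each of which the limma adjusted p lay between 0.0657 and 0.0836.

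The 3 other list members with the smallest p did not pass. The paralogue miR-23b-3p was at 2987, 2244 and 2681 in the CMS libraries and at 1964, 1753 and 1764 in the Control libraries (limma adjusted p = 0.0856). The level of miR-7a-5p, which acts in the generation of oligodendrocyte precursors, was 15489, 10906 and 14194 in CMS and 18993, 29367 and 22748 in Control (limma adjusted p = 0.0895). Under trimmed-mean rescaling its limma adjusted p was 0.0308, and among rows of mean 10 or more it was 0.0475. The level of miR-199a-5p was 78, 29 and 37 in CMS and 19, 17 and 20 in Control (limma adjusted p = 0.134). In each of these 3, and in miR-23a-3p, the groups did not overlap, as in 25.9% of all 657 rows.

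**Figure D4:**
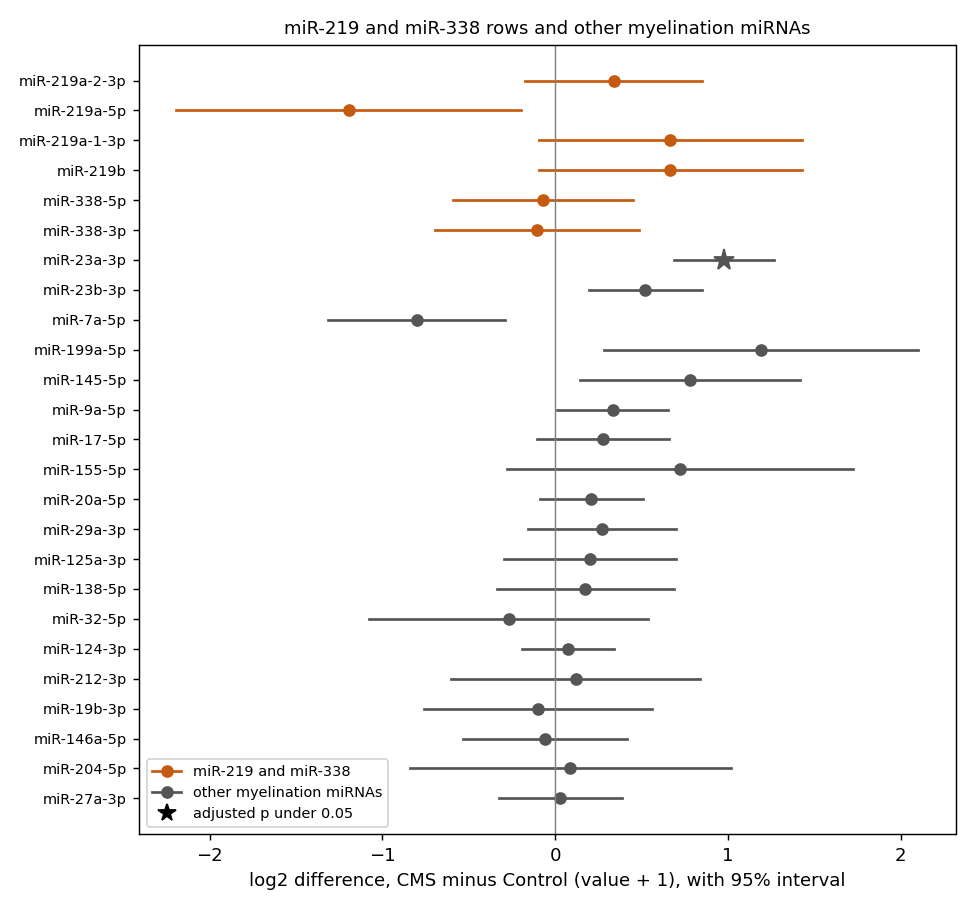
Log2 difference, CMS minus Control, on the scale of log2(value + 1), with its 95% interval from limma, for the 6 miR-219 and miR-338 rows (orange) and 19 other myelination miRNAs (grey, ordered by p). The star marks miR-23a-3p at 0.98, the 1 row shown that passed, and the interval of miR-219a-5p lies below 0 but its adjusted p did not pass.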

How the data were processed

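Libraries of total RNA from medial prefrontal cortex were run on an Illumina NextSeq instrument, per the labels' protocols, and aligned with Novoalign 2.07.11, per the submitters' processing notes. The sources used here do not give the trimming, build, annotation or normalization. The deposited values were treated as a score, that is, normalized values rounded to whole numbers by the authors. Rows with a mean of 1 to 8 had a variance over replicates of 0.53 times the mean in CMS (195 rows) and 0.471 times in Control (181 rows), below what counted reads can show. Raw depth is unknown.

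Samples were grouped by title, and p-values measure the spread between these libraries. Levels, as log2(value + 1), were fitted with limma-trend (limma 3.58.1, R 4.3.3) for rows with at least 1 in at least 3 libraries. Arm ratios were fitted likewise, with the trend on the mean level of both arms. Benjamini-Hochberg adjustment ran over all rows or pairs, with a threshold of 0.05. Single ratios and correlations used exact permutation tests (Python 3.11.15, NumPy 2.4.6). Both fits were also run on simulated data. No result of those runs is given here, so they do not vouch for calls on rows as low as miR-219a-5p. Members and lists were chosen with earlier results of these data known. Named were all members, the 4 list miRNAs with the smallest p and any that passed, and the 3 rows most correlated with miR-219a-2-3p and with miR-338-3p. Alternatives were other scalings (not for ratios), filters and pseudocounts, no trend, a replicate block and leaving out each library. Neighbouring genes came from RefSeq tables of GRCr8. No other row lay within 1% of a member listed in all libraries.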

Additional observations from a re-analysis of the deposited data

How the results depend on the processing

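Replicate numbers 1 to 3 occur in each group, and the labels used here do not say whether equal numbers belong together. Deviations from the group means correlated between equal numbers at -0.11, -0.02 and -0.05. No pair of equal numbers was the best match for both of its libraries. With 3 libraries a group, these values cannot show whether equal numbers shared a batch, and the main fits left the libraries unpaired. With the replicate block the arm ratio of miR-219a-2 was 1.53 and passed (limma adjusted p = 0.0361), changed pairs of arms numbered 20, and members passing were 0. With the block the changed rows were 1 in place of 27 and other myelination miRNAs passing 0 in place of 1. With annotated rows only the changed rows were 11. Leaving out 1 library gave 2 to 55 changed rows, 0 to 2 members, 0 to 1 other myelination miRNAs and 1 to 63 pairs of arms in place of 15. The 2 members, without Control 1, were miR-219a-1-3p and miR-219b, whose test there says nothing of the rats. Without Control 3, the library labelled polyA RNA, there were 9 changed rows and 1 changed pair of arms. Other libraries mattered as much, with 1 changed pair without CMS 2 and 2 changed rows without CMS 1. The pairs numbered 23 with a pseudocount of 10. Other myelination miRNAs passing were 2 with trimmed-mean rescaling and with a minimum mean of 10.

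The arm ratio of miR-219a-2 stayed positive in all 12 alternatives that gave a value (0.74 to 1.88, limma adjusted p from 0.00179 to 0.103). Without 1 library it lay between 1.33 and 1.87. With a minimum mean of 10 it was not tested, since the 5p arm falls below it. The least favourable rounding, the trend on the lower arm and miR-338-5p as the other arm were chosen after the data were seen. Leaving out 1 library gave log2 differences of -0.25 to 0.16 for miR-338-3p and -0.28 to 0.12 for miR-338-5p, positive only without CMS 2. For the miR-338 arm ratio it gave -0.18 to 0.046, positive without CMS 1 (0.030) and without CMS 2 (0.046). Trimmed-mean rescaling and quantile normalization shifted log2 differences by a median of -0.11 and -0.12, which is as large as the differences of both miR-338 arms. The log2 ratio of miR-219a-2-3p to miR-338-3p stayed positive throughout (0.32 to 0.63).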
